A study of Homo sapiens with 10 samples.

Results

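The SR protein and hnRNP genes encode RNA-binding proteins that choose splice sites, and 38 of them were followed here among 19974 protein-coding genes. They were taken from a list of names. Of these, 14 were SR protein genes (SRSF1 to SRSF12, TRA2A and TRA2B) and 22 were hnRNP genes, with SYNCRIP and PTBP1 among them. The other 2 were the related genes EWSR1 and TARDBP. No cut on a measured value was used, but the list was chosen with earlier results of these data known. The percent of bases under DRIP-seq peaks was read from peak lists for every gene, with 1 kb added on each side. DRIP-seq uses the S9.6 antibody to pull down RNA-DNA hybrids, the pairing found in R-loops, from sonicated nucleic acids. The cells were U2OS, a human osteosarcoma line, either wild type (WT) or with TDP1 H493R, the change that underlies the ataxia SCAN1. TDP1 clears topoisomerase 1 that is trapped on DNA, and the title of the series names the repair of transcriptional DNA breaks as its subject. Experiment 1 assayed WT and the line SCAN1#1, and experiment 2 assayed both again together with the line SCAN1#2, which gives 5 libraries, 2 of WT and 3 of SCAN1. The replicate number of a library is its experiment, and the labels state that antibody lots differed between experiments. The labels do not say whether a SCAN1 line is 1 clone or whether replicates were separate cultures, so the p-values measure only the spread between these samples. SCAN1#1 supplies 2 of the 3 SCAN1 libraries.

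SR proteins bind exons through RNA recognition motifs and recruit the spliceosome through domains rich in arginine and serine. The hnRNPs coat nascent transcripts, and many of them repress the exons they bind. Many of these genes limit their own output by splicing in exons that mark the mRNA for decay, and SR proteins and hnRNPs are among the factors known to bear on R-loop formation, because RNA that is packaged as it is made has less chance to pair again with its DNA template.

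All coverage values below come from lists of equal length, the 63456 peaks of lowest p in each library. The deposited lists held 63456 to 110745 peaks, the weakest peak retained had a -log10 p of 3.87 in SCAN1#1 replicate 1 and up to 9.92 in SCAN1#1 replicate 2. Read depth is unknown. A list of 7 genes was taken for the mesenchymal and osteoblast lineage, although LAMB3, a laminin-332 chain gene, is not a marker of it. Of these 7, COL1A2 had no peak. VIM was covered over 30.6% to 48.6% and SPARC over 11.4% to 38.6%, both with overlapping genotypes. The other 4 separated by genotype. COL1A1 was covered over 55.8% to 66.7% in WT and 9.09% to 35.9% in SCAN1, THY1 over 44.1% to 51.1% and 17.2% to 20.3%, RUNX2 over 1.25% to 2.52% and 0.626% to 1.13%, and LAMB3 over 6.79% to 10.5% and 31.7% to 46.3%, with adjusted p = 1 in limma for COL1A1, THY1 and LAMB3 and no test of RUNX2, which was below the filter. Of 11 genes of other lineages, 8 had no peak in any library, and HBA1, a globin gene, was covered over 0% to 12.6% in WT and 26.7% to 53.8% in SCAN1, with WT replicate 1 at 47.0% in the lists as deposited. Whether these loci bear on the members was not tested. Peak coverage is not an RNA level and checks the cell line only loosely.

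The promoters of 6 members are printed because they span the range of what was seen at the starts of these genes, from full coverage in every library to none. Each runs 5′ to 3′ on the strand of the gene, from 250 bases before to 50 after the start, with runs of GGG or longer in capitals, and the sequences are RefSeq's on GRCh38.p14. SRSF7 (chr2:38751445-38751744, minus strand), HNRNPF (chr10:43408808-43409107, minus strand) and HNRNPA3 (chr2:177212544-177212843, plus strand) lay entirely under peaks in all 5 libraries. SRSF8 (chr11:95066627-95066926, plus strand), HNRNPM (chr19:8444725-8445024, plus strand) and SRSF12 (chr6:89118022-89118321, minus strand) had no peak over this window in any of the 5 libraries.
SRSF7: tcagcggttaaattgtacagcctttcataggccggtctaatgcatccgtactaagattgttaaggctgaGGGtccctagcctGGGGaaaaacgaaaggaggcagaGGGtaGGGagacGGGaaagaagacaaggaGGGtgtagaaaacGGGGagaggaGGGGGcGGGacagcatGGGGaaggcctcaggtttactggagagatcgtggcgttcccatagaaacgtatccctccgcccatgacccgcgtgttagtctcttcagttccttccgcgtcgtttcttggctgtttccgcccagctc
HNRNPF: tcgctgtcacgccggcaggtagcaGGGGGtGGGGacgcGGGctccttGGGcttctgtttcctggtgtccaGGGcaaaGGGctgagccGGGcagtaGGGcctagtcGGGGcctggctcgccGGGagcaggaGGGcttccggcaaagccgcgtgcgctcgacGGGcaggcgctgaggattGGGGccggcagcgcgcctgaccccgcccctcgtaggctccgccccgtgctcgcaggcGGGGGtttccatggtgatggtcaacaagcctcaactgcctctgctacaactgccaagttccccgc
HNRNPA3: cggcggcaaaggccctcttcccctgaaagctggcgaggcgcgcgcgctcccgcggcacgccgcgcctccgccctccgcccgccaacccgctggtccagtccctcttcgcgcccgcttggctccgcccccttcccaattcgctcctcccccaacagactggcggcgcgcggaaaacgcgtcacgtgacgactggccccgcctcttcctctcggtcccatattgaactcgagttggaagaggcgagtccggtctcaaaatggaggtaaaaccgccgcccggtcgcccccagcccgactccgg
SRSF8: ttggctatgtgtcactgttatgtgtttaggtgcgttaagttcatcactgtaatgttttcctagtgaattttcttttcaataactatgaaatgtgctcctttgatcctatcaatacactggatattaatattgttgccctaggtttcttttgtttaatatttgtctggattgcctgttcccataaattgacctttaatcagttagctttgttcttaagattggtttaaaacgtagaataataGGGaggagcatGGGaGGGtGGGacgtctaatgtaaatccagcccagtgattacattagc
HNRNPM: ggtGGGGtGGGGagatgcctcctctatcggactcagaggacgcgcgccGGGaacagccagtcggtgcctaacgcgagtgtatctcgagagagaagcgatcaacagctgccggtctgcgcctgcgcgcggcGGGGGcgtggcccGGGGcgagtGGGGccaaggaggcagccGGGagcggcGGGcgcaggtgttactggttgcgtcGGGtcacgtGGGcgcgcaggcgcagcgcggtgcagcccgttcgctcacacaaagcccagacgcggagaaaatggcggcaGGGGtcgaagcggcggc
SRSF12: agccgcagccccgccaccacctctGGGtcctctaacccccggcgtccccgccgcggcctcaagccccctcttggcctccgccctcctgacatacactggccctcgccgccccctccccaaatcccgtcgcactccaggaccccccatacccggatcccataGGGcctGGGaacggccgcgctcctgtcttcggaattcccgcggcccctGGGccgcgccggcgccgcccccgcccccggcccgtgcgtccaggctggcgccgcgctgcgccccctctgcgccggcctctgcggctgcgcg

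Runs of guanine on the RNA-like strand are a sequence feature often discussed for R-loops. The printed windows were picked to span the range of coverage and did not sort by these runs. The medians by class given below fell with the number of libraries with a peak. SRSF7 held 10 runs of GGG and HNRNPF held 14, whereas HNRNPA3, fully covered in every library, held 0 on this strand and 16 runs of CCC, the same motif on the other strand. HNRNPM held 11 runs of GGG and was not covered. SRSF8, a gene derived from a copy of SRSF2 by retrotransposition, had a GC content of 36% and 3 CpG dinucleotides, and SRSF12 had a GC content of 77% with 37. Over the 35 members in the promoter table (SRSF2, HNRNPA1 and TRA2A are not in it), 34 windows held GGG and 35 held CCC, and of 15813 promoters of protein-coding genes 98.2% held GGG and 98.0% held CCC. The median GC content was 65% with 30 CpG in the members and 62.7% with 22 in all these promoters. In 19 members the window met a peak in all 5 libraries, in 9 members in 1 to 4 libraries and in 7 members in none. The median number of GGG runs in these 3 classes was 8, 6 and 4, with ranges of 0 to 16, 3 to 12 and 1 to 11 that overlapped, and no test was made. The 7 members without a peak over this window were SRSF8, SRSF9, SRSF12, HNRNPH1, HNRNPH2, HNRNPM and PTBP1. Only 1 window was read per gene, so other starts of these genes were not examined.

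Peaks covered more of these genes than of most protein-coding genes, in WT and SCAN1 libraries alike. The median member was covered over 23.6% in WT replicate 1, 16.2% in WT replicate 2, 23.6% in SCAN1#1 replicate 1, 16.4% in SCAN1#1 replicate 2 and 16.2% in SCAN1#2 replicate 2. The median of all protein-coding genes lay between 0.751% and 1.24% in the same libraries. A peak was present in all 5 libraries in 33 of the 38 members (86.8%), against 47.9% of all protein-coding genes. Coverage depends on gene length, so each member was also set beside coding genes of its own length class (under 5, 5 to 10, 10 to 20, 20 to 40, and 40 kb or more). Of the 38 members, 36 were above the median of their class and 12 above its 90th percentile. The hnRNP genes had a median of 25.5% and the SR genes of 16.8% as means over the 5 libraries, with ranges of 0.599% to 97.9% and 0% to 70.1% that overlapped almost fully.

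**Figure D1:**
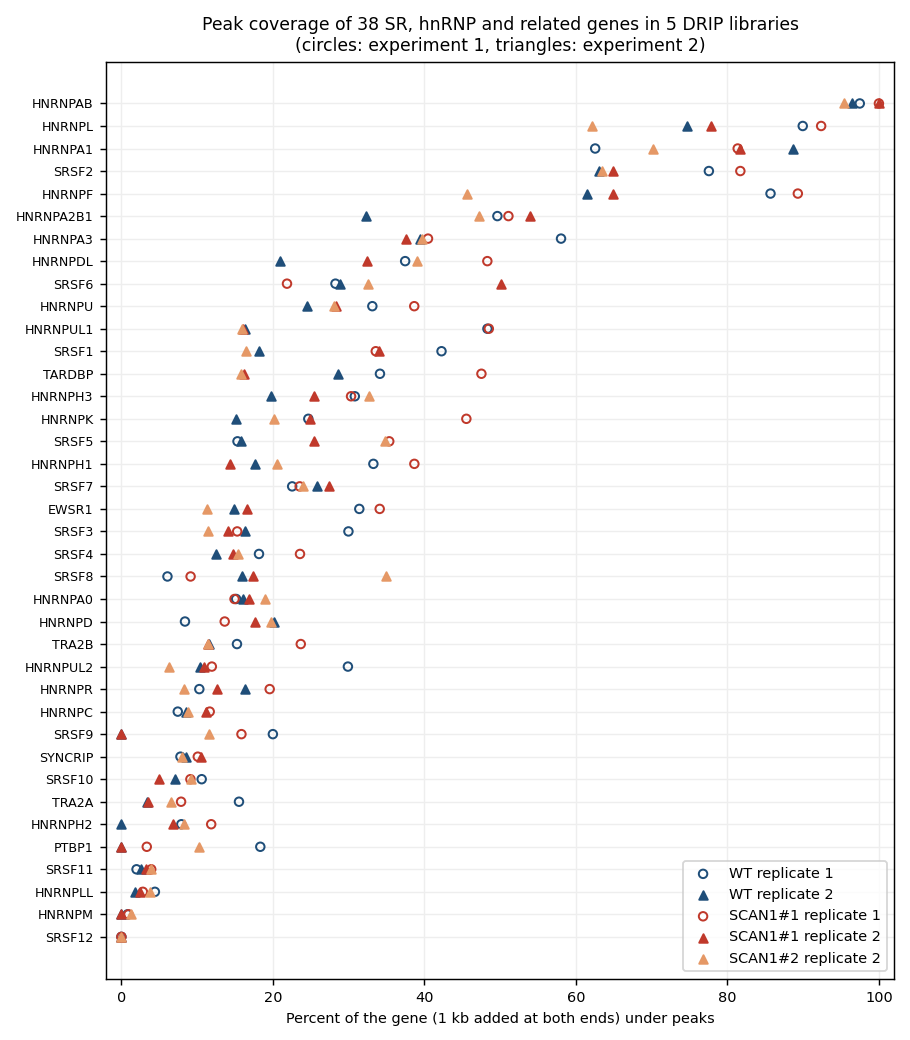
Percent of each of the 38 genes (1 kb added at both ends) under peaks, with 1 symbol per library. Circles are experiment 1 and triangles experiment 2, blue is WT and red and orange are the SCAN1 lines. HNRNPAB stands at 95.4% to 100% in all 5 libraries, SRSF12 at 0%, and the circles of HNRNPUL1, HNRNPF and EWSR1 lie to the right of their triangles.

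Among the SR genes, SRSF2 (chromosome 17, 76734115 to 76737411), which encodes a factor that binds exonic enhancers and is mutated in myeloid disease, had the highest coverage. In WT it was covered over 77.6% (replicate 1) and 63.0% (replicate 2), in SCAN1#1 over 81.7% and 64.9% in the same order, and in SCAN1#2 over 63.4%. Pairs of values below keep this order. Both libraries of experiment 1 lay above the 3 of experiment 2, while the genotypes overlapped. The window also holds MFSD11, METTL23 and MIR636, and peaks cannot be divided among overlapping genes.

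SRSF7 (chromosome 2, 38743599 to 38751494, minus strand), which encodes an SR protein with a zinc knuckle that also serves mRNA export, had the peak of highest fold among the members in 4 of the 5 libraries. The fold enrichment of its peak was 74.7 and 61.2 in WT, 47.6 and 79.9 in SCAN1#1 and 90.6 in SCAN1#2, on the authors' scale. These ranked 24th to 56th among the 63456 peaks of their libraries, and WT and SCAN1 values overlapped. The gene had exactly 1 peak in every library, within chromosome 2, 38749041 to 38751962, and its summit lay 321 to 349 bases from the 5′ end. The first 1 kb was covered over 100% in all 5 libraries, and the middle and last of 3 equal parts of the gene over 0% in all of them.

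SRSF1, among the first SR proteins described, was covered over 42.3% and 18.2% in WT, 33.6% and 34.0% in SCAN1#1 and 16.4% in SCAN1#2. Its main peak, of fold 31.1 to 52.6, had a median summit 466 bases from the 5′ end. SRSF4 and SRSF6 encode larger SR proteins with paired RNA recognition motifs. SRSF4 was covered over 12.4% to 23.6% and had a start peak of fold 32.2 to 52.1. SRSF6 was covered over 28.3% and 28.9% in WT, 21.9% and 50.1% in SCAN1#1 and 32.5% in SCAN1#2, so that SCAN1#1 held both its lowest and its highest value. TRA2B, a sequence-specific activator of exons rich in GAA, had a start peak of fold 23.9 to 45.6 with its summit at 202 to 260 bases, and was covered over 11.4% to 23.7%. Its paralog TRA2A was covered over 3.42% to 15.5%.

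The lower end of the SR genes held those with weak or no peaks. SRSF11 was covered over 2.00% and 2.64% in WT, 3.94% and 3.24% in SCAN1#1 and 3.90% in SCAN1#2, in a gene of 47.357 kb. SRSF10, which encodes a repressor of splicing when it is dephosphorylated, was covered over 5.01% to 10.6%. SRSF9 was covered over 20% and 0% in WT, 15.8% and 0% in SCAN1#1 and 11.5% in SCAN1#2, and the zeros belong to the peaks left out by equal list length, since the deposited lists covered 8.55% and 8.76% in these 2 libraries. SRSF12, a relative of SRSF10, had no peak in any library, in the equal or the deposited lists.

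HNRNPAB (chromosome 5, 178204533 to 178211163, plus strand), a relative of the A and D type hnRNPs, was covered nearly from end to end. It stood at 97.5% and 96.4% in WT, 100% and 100% in SCAN1#1 and 95.4% in SCAN1#2. A single merged region of 15005 bases (chromosome 5, 178202934 to 178217938) ran across the gene into the window shared with PHYKPL, at a highest fold of 15.7 to 26.2. HNRNPA1 (chromosome 12, 54280726 to 54287087), which encodes an abundant binder of exonic silencers, stood at 62.5% and 88.7% in WT, 81.4% and 81.7% in SCAN1#1 and 70.1% in SCAN1#2. WT held its lowest and its highest value. HNRNPA1 has many processed copies in the genome, the sources used here do not say how reads that fit several places were treated, and its window is shared with CBX5.

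HNRNPA2B1, whose protein recognises RNA sorting signals, was covered over 49.6% and 32.3% in WT, 51.1% and 54.0% in SCAN1#1 and 47.2% in SCAN1#2, and its window reaches into CBX3. HNRNPA3 was covered over 37.5% to 58.0%. HNRNPA0, an intronless member of the A family, had 1 peak in every library and 14.9% to 18.9% coverage, the summit lying 975 to 1062 bases from its 5′ end. HNRNPD, known as AUF1 for its part in the decay of AU-rich mRNAs, was covered over 8.39% to 20.1%. The related HNRNPDL (chromosome 4, 82422564 to 82430462, minus strand) ranked next to SRSF7 in those 4 libraries and above it in SCAN1#1 replicate 1. Its fold was 65.1 and 54.9 in WT, 59.1 and 77.1 in SCAN1#1 and 78.4 in SCAN1#2, within chromosome 4, 82425936 to 82430494, and the summit lay 1334 to 1418 bases from the 5′ end.

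HNRNPF, HNRNPH1, HNRNPH2 and HNRNPH3 encode proteins that bind runs of guanine in RNA, and they differed widely from each other. HNRNPF (chromosome 10, 43385618 to 43409186, minus strand) was covered over 85.7% and 61.4% in WT, 89.3% and 64.9% in SCAN1#1 and 45.7% in SCAN1#2. At 23.569 kb it was the longest of the 5 members covered over at least 50% on average, and it reached this through 7 to 9 peaks in every library. HNRNPH1 was covered over 14.4% to 38.7%, with the summit of its strongest peak at 11546 to 24163 bases from the 5′ end. The farthest of these summits, in WT replicate 1, lay past the 3′ end of the 20.607 kb gene. No peak lay over the HNRNPH1 promoter window, which is at the 5′ end of the whole gene. A region inside the gene, at chromosome 5, 179621679 to 179625222, had a peak in all 5 libraries, of fold 11.1 to 20.5. Whether another start of HNRNPH1 lies there was not examined. HNRNPH2, on chromosome X and closely similar to HNRNPH1 in protein sequence, was covered over 0% to 11.9%, and HNRNPH3 over 19.8% to 32.7%.

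HNRNPL (chromosome 19, 38836370 to 38852347, minus strand), which binds CA repeats, was covered over 89.9% and 74.6% in WT, 92.4% and 77.8% in SCAN1#1 and 62.1% in SCAN1#2. Its paralog HNRNPLL, known for the splicing of CD45 in lymphocytes, was covered over 4.42% and 1.77% in WT, 2.84% and 2.45% in SCAN1#1 and 3.71% in SCAN1#2. Even so, HNRNPLL had a peak with its summit 357 to 430 bases from the 5′ end in each library, of fold 8.11 to 17.3, so the low percent goes with a gene of 40.96 kb. HNRNPM stood at 0.819% and 0% in WT, 0.938% and 0% in SCAN1#1 and 1.24% in SCAN1#2, with no peak at its start.

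HNRNPU, also known as the scaffold attachment factor SAF-A, was covered over 24.5% to 38.7% with a start peak of fold 26.1 to 56.7. HNRNPUL1 and HNRNPUL2 encode relatives of HNRNPU that have been tied to DNA break repair, and HNRNPUL2 was covered over 6.27% to 29.9%. HNRNPC, the binder of uridine tracts that keeps Alu exons out of mRNA, was covered over 7.44% to 11.7%. SYNCRIP was covered over 7.80% to 10.6% and its relative HNRNPR over 8.20% to 19.6%. PTBP1, which binds pyrimidine tracts and silences neuronal exons in other cells, stood at 18.3% and 0% in WT, 3.35% and 0% in SCAN1#1 and 10.3% in SCAN1#2.

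The strongest peaks of many members sat just inside the 5′ end and at nearly the same base in every library. Among 30 members with known strand and a peak in all 5 libraries, the median summit lay 0 to 1500 bases downstream of the 5′ end in 22 (73.3%), against 30.8% of 5685 protein-coding genes treated alike. The 5 summits fell within 200 bases of each other in 15 members (50%) and in 24.0% of the coding genes. In 13 members (43.3%) all 5 summits lay in that window and within 200 bases of each other, against 11.3%. SRSF7 had a spread of 28 bases, SRSF5 of 36 (716 to 752), HNRNPF of 48 (826 to 874) and SRSF3 of 52 (282 to 334). In the other 8 members the median summit lay further from the 5′ end. It was at 2636 bases in HNRNPL, 2935 in HNRNPUL1, 3555 in SRSF8 and 3973 (range 3811 to 44832) in SRSF11. In HNRNPAB it was at 5114 (range 430 to 5750), in HNRNPH1 at 11600, in TARDBP at 19037 and in EWSR1 at 31594. A peak only had to touch the window, and the TARDBP value lies past the 3′ end of a gene of 17.875 kb. The 5′ end here is that of the whole gene. The promoter windows of HNRNPF and SRSF11 (chromosome 1, 70221130 to 70221429) lie inside the gene. The summit of EWSR1 was near the 3′ end in 3 libraries and at -1510 and -1517 bases, before the 5′ end, in WT replicate 2 and SCAN1#1 replicate 1, and that of TARDBP lay 9702 bases from the 5′ end in SCAN1#2. The TARDBP window is shared at the 3′ end with MASP2, and that of EWSR1 at the 5′ end with RHBDD3. Shares such as these are descriptions of libraries that share cells and protocol, and no test was made.

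Along the gene, coverage of the members stood furthest above that of other genes near the start. Over the 35 members with strand, the first 1 kb was covered over 68.0% and 63.7% on average in WT, 72.1% and 70.1% in SCAN1#1 and 71.7% in SCAN1#2, against 32.2% to 37.8% over 6832 protein-coding genes that passed the coverage filter. With the gene cut into 10 equal parts, part 2 was covered over 40.5% in experiment 1 and 36.9% in experiment 2 in the members, and over 21.0% and 18.4% in the coding genes. Part 6 stood at 27.0% and 19.8% against 18.7% and 13.8%. In part 7 the values were close, 17.8% and 14.6% against 19.2% and 13.9%, and in part 10 the members were lower, 21.0% and 10.8% against 22.6% and 15.7%. The members were again above the other genes in the 1 kb before the 5′ end (35.7% and 28.5% against 24.1% and 20.9%) and in the 1 kb after the 3′ end (37.6% and 24.8% against 25.4% and 18.2%).

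**Figure D2:**
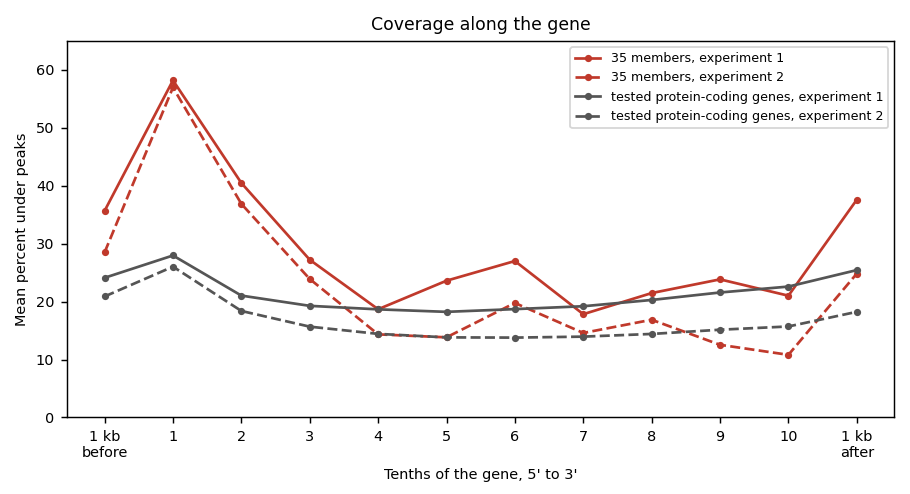
Mean percent under peaks from 1 kb before the 5′ end, through 10 equal parts of the gene, to 1 kb after the 3′ end, for 35 members (red) and 6832 tested protein-coding genes (grey). Solid lines are the mean of the experiment 1 libraries and dashed lines of the experiment 2 libraries. In part 1 the members stand at 58.2% and 56.9% and the coding genes at 27.9% and 26.0%, and the red lines lie furthest apart after the 3′ end, at 37.6% and 24.8%.

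Merging the peaks of the 5 libraries gave 240 regions in the windows of the members. Of these, 61 (25.4%) had a peak in all 5 libraries, spread over 32 members with a median width of 2578 bases, where 18.9% of 48733 regions in the windows of all tested genes did, and 95 had a peak in 1 library only, with a median width of 396 bases. WT replicate 1 alone accounted for 36 of the latter and SCAN1#1 replicate 1 alone for 47. These experiment 1 lists reached weaker peaks (-log10 p of 6.13 and 3.87) than the lists of experiment 2. The share of regions in 1 library only was not computed over all tested genes, so these counts are not particular to the members. Both libraries of experiment 1 and no other had a peak in 25 regions (10.4%, with 6.9% of the regions of all tested genes), 6 of them in HNRNPUL1. All 3 libraries of experiment 2 and no other had one in 0 regions (with 1.66%). Both WT libraries alone had a peak in 3 regions (1.25%, with 1.51%), 2 in SRSF3 and 1 in EWSR1. All 3 SCAN1 libraries alone had one in 1 region (0.417%, with 0.934%), in SRSF11 (chromosome 1, 70243375 to 70244051). A pattern over 3 libraries is harder to meet than one over 2, so counts are to be read against their own background only.

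Whether TDP1 H493R goes with a different coverage of these genes was asked by comparing 3 SCAN1 with 2 WT libraries. No member passed the threshold. In limma with Benjamini-Hochberg adjustment, fitted over the 8472 protein-coding genes with a mean coverage of at least 2%, 0 genes were higher (0%) and 0 lower (0%) at an adjusted p under 0.05, and the smallest adjusted p was 0.358. At an unadjusted p under 0.05, 164 genes were higher (1.94%) and 131 lower (1.55%). Of the 38 members 36 passed the filter, all but HNRNPM and SRSF12. Among these, coverage was higher in SCAN1 in 20 and lower in 16, where 4374 of all tested genes were higher and 4098 lower. The median difference over the members was 1.04 percentage points, against 0.08 over all tested genes. With the experiment as a block, 26 were higher and 10 lower, where 4675 of all tested genes were higher and 3797 lower, and the median was 1.38 points against 0.29. Without the block, the median turned to -0.81 without WT replicate 2 and to -0.45 without SCAN1#1 replicate 1, and was 4.25 without WT replicate 1.

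Within experiments, the median difference over the members was 2.48 points for SCAN1#1 against WT in experiment 1 and 1.5 in experiment 2, and 0.82 for SCAN1#2 against WT in experiment 2. Over all tested genes the same medians were 0.02, 0.80 and -0.08. The comparisons of experiment 2 share a WT library. The genotype difference was also allowed to vary with the experiment, a fit added after the data had been seen. In it 0 of 8472 genes passed at an adjusted p under 0.05 by limma, the smallest adjusted p was 0.402, 590 genes had an unadjusted p under 0.05, and 0 of the 36 members did.

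The member with the largest difference by genotype was SRSF5 (chromosome 14, 69767142 to 69772005, plus strand), an SR protein gene that shares its window with LOC100289511. It was covered over 15.3% and 15.8% in WT, 35.4% and 25.4% in SCAN1#1 and 34.8% in SCAN1#2. All 3 SCAN1 libraries lay above both WT libraries, at 31.8% ± 5.60 (SD, n = 3) against 15.6% ± 0.319 (SD, n = 2). The difference was 16.3 points (SE 6.43, 95% interval 0.111 to 32.5) with an unadjusted p of 0.0489 and an adjusted p of 1 in limma. With the experiment as a block the difference was 16.8 points, with an adjusted p of 0.751. The start peak ended 1.278 and 1.276 kb from the 5′ end in WT, 1.768 and 1.739 kb in SCAN1#1 and 1.909 kb in SCAN1#2. Separate peaks lay further along, at 2.52 to 2.824, 4.126 to 4.342 and 5.418 to 5.814 kb in SCAN1#1 replicate 1. In SCAN1#2 a separate peak lay at 2.726 to 3.226 kb. These peaks were weak, of fold 3.84, 3.52 and 3.01 in SCAN1#1 replicate 1 and 4.95 in SCAN1#2. The list of SCAN1#1 replicate 1 reached weaker peaks than that of any other library. The middle of 3 equal parts of the gene was covered over 0% in both WT libraries, over 27.8% and 7.3% in SCAN1#1 and over 48.6% in SCAN1#2. In the lists as deposited SRSF5 stood at 19.9% and 24.4% in WT, 35.4% and 44.7% in SCAN1#1 and 34.8% in SCAN1#2. In the fit with the experiment as a block, 2 of the 36 tested members (SRSF5 and HNRNPH2) were higher at an unadjusted p under 0.05 and 0 lower. Of all tested genes 3.52% were higher and 2.6% lower. HNRNPH2 stood at 0% in WT replicate 2 through the equal list length, and at 5.02% there in the list as deposited.

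HNRNPDL was covered over 37.5% and 20.9% in WT, 48.3% and 32.4% in SCAN1#1 and 39.0% in SCAN1#2, a difference of 10.7 points (SE 10.1, adjusted p = 1 in limma). Each SCAN1 library exceeded WT of its experiment, but the groups overlapped. HNRNPK, whose protein binds cytidine-rich RNA and DNA, stood at 24.7% and 15.2% in WT, 45.5% and 24.9% in SCAN1#1 and 20.1% in SCAN1#2, a difference of 10.3 points (SE 9.85, adjusted p = 1 in limma). Without SCAN1#1 replicate 1 the difference of HNRNPK was 2.58 points, and without WT replicate 2 that of HNRNPDL was 2.46 points. SRSF3, the smallest SR protein, with parts in splicing, mRNA export and 3′ end formation, was the one member lower than WT in every comparison within experiments. It was covered over 30% and 16.4% in WT, 15.3% and 14.1% in SCAN1#1 and 11.4% in SCAN1#2, a difference of -9.57 points (SE 5.43, adjusted p = 1 in limma). Without WT replicate 1 it was -2.77. In the lists as deposited SRSF3 stood at 34.7% and 28.1% in WT, 15.3% and 33.0% in SCAN1#1 and 17.7% in SCAN1#2, so SCAN1#1 was above WT in experiment 2 and the groups overlapped.

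Counted by overlap, 3 of the 36 tested members (SRSF5, HNRNPC and SRSF11) had all SCAN1 values above all WT values, where 9.48% of all tested genes did. In 1 member, SRSF3, they were all below, where 6.86% of tested genes were. In the lists as deposited the groups overlapped in SRSF3 and also in SRSF11, at 5.66% in WT replicate 2 and 3.94% in SCAN1#1 replicate 1. Both shares among the members, 8.33% and 2.78%, were no higher than these backgrounds. Higher than WT in all 3 comparisons within experiments were 11 members (30.6%, with 19.4% of tested genes), and lower was 1 (2.78%, with 15.8%). These comparisons share a WT library and were not tested as a count.

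TARDBP encodes TDP-43, the RNA-binding protein that aggregates in motor neuron disease, and EWSR1 encodes a FET protein that is fused to transcription factors in Ewing sarcoma. TARDBP (chromosome 1, 11012654 to 11030528, plus strand) was covered over 34.1% and 28.6% in WT, 47.5% and 16.2% in SCAN1#1 and 15.8% in SCAN1#2. SCAN1 held both its highest and its lowest value, and the genotype difference of -4.84 points (SE 12.1, adjusted p = 1 in limma) changed sign when SCAN1#1 replicate 2 (0.30) or SCAN1#2 replicate 2 (0.52) was left out. A region at chromosome 1, 11027299 to 11034234, of fold 11.7 to 19.2, lies across the 3′ end and into the window shared with MASP2, and was the strongest of the gene in 4 libraries. In SCAN1#2 a region at 11021844 to 11023872 was slightly stronger (11.8 against 11.7). EWSR1 (chromosome 22, 29268268 to 29300521, plus strand) was covered over 31.4% and 14.9% in WT, 34.1% and 16.5% in SCAN1#1 and 11.4% in SCAN1#2. Its genotype difference was -2.48 points (SE 9.36, adjusted p = 1 in limma), and with the experiment as a block it was 0.62. Without WT replicate 1 it was 5.79, and without SCAN1#2 replicate 2 it was 2.18. In both genes the experiment 1 values lay above those of experiment 2, and the genotypes overlapped.

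**Figure D3:**
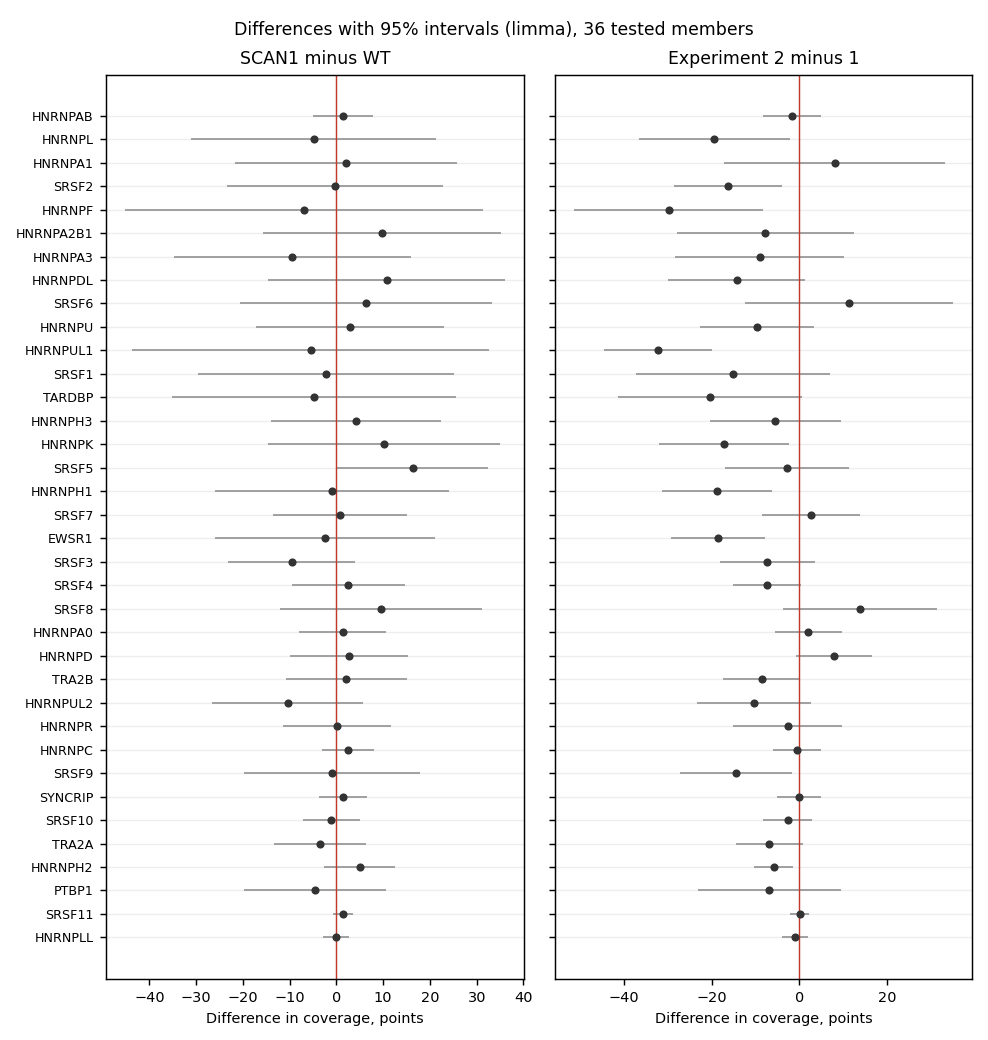
Difference in coverage, in percentage points, with 95% intervals from limma for the 36 tested members. The left panel is SCAN1 minus WT, where SRSF5 is the one member whose interval (0.111 to 32.5) leaves out 0, and the right panel is experiment 2 minus experiment 1, where most points lie to the left of 0.

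Experiment 2 had lower coverage of most members than experiment 1. In limma with genotype in the fit, 29 of the 36 tested members were lower and 7 higher in experiment 2. Of all tested genes, 5166 were lower and 3306 higher. The median difference was -7.06 points over the members, against -1.14 over all tested genes. At an adjusted p under 0.05, 0 of 8472 genes passed in either direction (0% and 0%; smallest adjusted p 0.0839). At an unadjusted p under 0.05, 9 members were lower and 0 higher, where 17.8% of tested genes were lower and 3.71% higher. Experiments differ in antibody lot, so experiment and lot cannot be told apart. The cut of the lists differed by experiment too. The weakest peak retained had a -log10 p of 6.13 (WT) and 3.87 (SCAN1#1) in experiment 1. In experiment 2 it was 7.69 (WT), 9.92 (SCAN1#1) and 7.75 (SCAN1#2). The part of this cut in the difference was not tested. The median over the members was -3.84 without WT replicate 1 or without WT replicate 2, -4.25 with the lists as deposited and -2.83 with peaks of -log10 q of at least 5.

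With experiment alone in the fit, 10 genes were higher (0.118%) and 182 lower (2.15%) at an adjusted p under 0.05, and 1 of the 36 members was among them. This was HNRNPUL1 (chromosome 19, 41262557 to 41307787, plus strand), with a difference of -32.3 points (adjusted p = 0.0385 in limma). At an unadjusted p under 0.05 the fit with experiment alone had 9 members lower, where 17.8% of tested genes were, and 1 higher (HNRNPD), where 3.67% were. With genotype in the fit the HNRNPUL1 difference had an SE of 4.53 and an adjusted p of 0.0947. HNRNPUL1 was covered over 48.3% and 48.5% in WT and SCAN1#1 of experiment 1, and over 16.3%, 16.0% and 15.9% in WT, SCAN1#1 and SCAN1#2 of experiment 2. Within each experiment the libraries differed by less than 1 point. It had 22 and 20 peaks in the former libraries and 3 to 5 in the latter. The first 1 kb was covered over 100% in all 5 libraries, and the last of 3 equal parts over 31.8% and 37.7% in experiment 1 and 3.8%, 5.9% and 5.3% in experiment 2. The added 1 kb before its 5′ end reaches AXL.

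HNRNPF differed by -29.8 points between experiments (SE 7.96, adjusted p = 0.157 in limma) and TARDBP by -20.4 points (SE 7.69, adjusted p = 0.239 in limma). The first 1 kb of HNRNPF stayed at 100% in every library. In the other direction, SRSF8 was covered over 6.08% and 15.9% in WT, 9.14% and 17.3% in SCAN1#1 and 34.9% in SCAN1#2, higher in experiment 2 by 13.9 points (SE 6.48, adjusted p = 0.304 in limma). The peak of SRSF8 that all libraries shared had its summit 3542 to 3633 bases from the 5′ end, in the last part of this short gene, and the first of 3 equal parts of the gene was covered in SCAN1#1 replicate 1 (19.5%) and SCAN1#2 (84.3%) alone. SRSF6 was higher in experiment 2 by 11.4 points (SE 8.75, adjusted p = 0.495 in limma) and HNRNPA1 by 8.07 points (SE 9.24, adjusted p = 0.649 in limma).

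**Figure D4:**
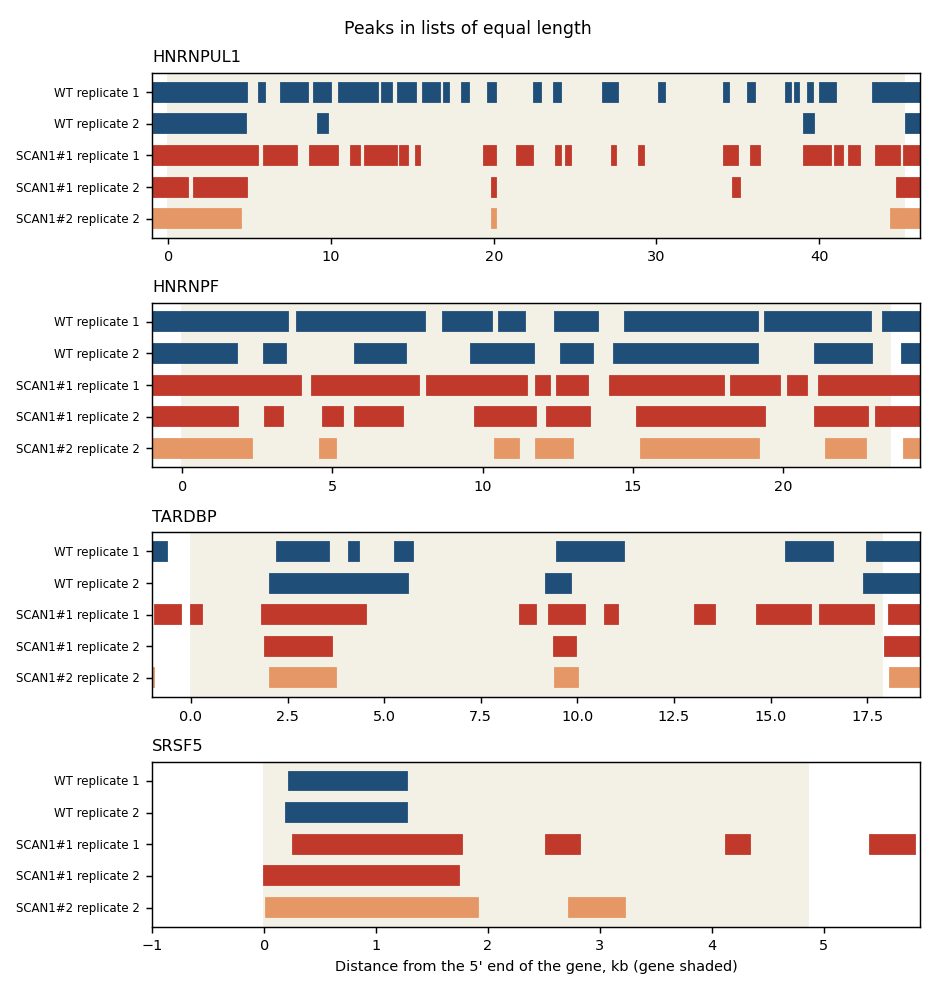
Peaks of the equal-length lists in HNRNPUL1, HNRNPF, TARDBP and SRSF5, 1 track per library, by distance in kb from the 5′ end with the gene shaded. HNRNPUL1 has 22 and 20 peaks in the experiment 1 libraries and 3 to 5 in the others. In SRSF5 the start peak is longer in the 3 SCAN1 libraries than in both WT libraries.

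Counted by overlap, both experiment 1 values lay above all 3 experiment 2 values in 14 of the 36 members (38.9%), where they did in 28.1% of all tested genes, and below in 5 (13.9%), where they did in 13.2%. The 14 included SRSF2, SRSF4, SRSF9, TRA2A and TRA2B of the SR genes and HNRNPL, HNRNPF, HNRNPA3, HNRNPU, HNRNPUL1, HNRNPUL2 and HNRNPH1 of the hnRNP genes, with TARDBP and EWSR1. The 5 were SRSF6, SRSF7, SRSF8, HNRNPA0 and HNRNPD. Some of these separations depended on equal list length. In the lists as deposited the experiments overlapped in SRSF4, TRA2A, TRA2B, HNRNPA3, HNRNPU and HNRNPUL2 of the former group and in SRSF6 of the latter.

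The difference between experiments was uneven along the gene. Over the 35 members with strand, the first 1 kb went from 70.0% in experiment 1 to 68.5% in experiment 2, a difference of -1.54 points. The last of 3 equal parts went from 21.3% to 13.6%, with 23 members lower and 4 higher. The 1 kb before the 5′ end went from 35.7% to 28.5%, with 20 members lower and 7 higher, and the 1 kb after the 3′ end from 37.6% to 24.8%, with 16 lower and 3 higher. Tested coding genes differed by -0.72 points in the first 1 kb, -6.28 in the last part, -3.22 before the 5′ end and -7.20 after the 3′ end, so the pattern was not shown to be particular to the members. The peaks in the windows of the members numbered 189 and 214 in the experiment 1 libraries and 104 to 116 in those of experiment 2. The lists had the same length but reached weaker peaks in experiment 1 than in experiment 2.

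A list of 115 other splicing genes (snRNP proteins, helicases, kinases and regulators) was measured alongside. Their median coverage was 8.94%, between that of the members (19.5%) and that of all coding genes (1.29%), each as the median of means over the 5 libraries. The median gene was 15.4 kb long in the members, 24.2 kb in all coding genes and 24.4 kb in the other splicing genes. Coverage depends on length, and the other splicing genes were not compared by length class. Of the 97 that passed the filter, coverage was higher in SCAN1 in 45 and lower in 52 (median -0.38 points), and 0 passed at an adjusted p under 0.05 in limma, while 0 higher and 1 lower had an unadjusted p under 0.05. By experiment 25 were higher and 72 lower (median -3.40 points). In 40 of them (41.2%) both experiment 1 values lay above all experiment 2 values, a share close to the 38.9% of the members. With experiment alone in the fit, SCAF1 (-53.6 points), U2AF2 (-47.1) and YBX1 (-14.1) were lower in experiment 2, with adjusted p of 0.0369, 0.0444 and 0.0392 in limma.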

How the data were processed

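DRIP libraries of U2OS cells were analysed from the authors' 5 deposited narrowPeak lists; 5 input samples were not analysed here. The submitters' processing notes name MACS3 3.0.0a6, deepTools 3.5.1, SAMtools 1.9, BWA 0.7.17-r1188 and FastQC 0.11.5, with build hg38; the sources used here give no control or calling options. Per the layout of the deposited files, each peak has a score, a fold enrichment (a ratio), a -log10 p, a -log10 q and a summit offset. Depth is unknown, so no counting interval could be given.

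The percent of each RefSeq gene (GRCh38.p14, chromosomes 1 to 22 and X; 1 kb added on each side) under the 63456 peaks of highest -log10 p was computed. Genes for proteins whose mean reached at least 2% (8472) were tested on the linear scale with limma 3.58.1 in R 4.3.3 (lmFit, eBayes with trend, Benjamini-Hochberg, threshold 0.05), checked on simulated data. Both SCAN1 lines formed 1 group. Peaks were summarised with Python 3.11.15, numpy 2.4.6 and pandas 2.3.3, and plotted with matplotlib 3.10.9. Strand and promoters come from RefSeq's promoter table (35 of 38 members), and exons and introns were not used here. A region is the union of touching peaks.

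Values per library are given, by rule, for the 6 members of highest and 4 of lowest coverage, up to 3 per direction with the largest difference by genotype (same sign in all 3 comparisons within experiments) and by experiment, those with the 3 strongest peaks, TARDBP and EWSR1; SRSF1, SRSF9 and PTBP1 were added after their values were seen. Members, lists and tests were chosen with earlier results of these data known. In the labels a replicate number is that of its experiment, so numbers pair samples. Deviations from group means correlated across genes by 0.612, 0.325 and 0.470 for WT with SCAN1 of the same experiment. For SCAN1#1 with SCAN1#2 of experiment 2 the value was -0.1355. Deviations from a shared group mean are tied to each other, so these correlations do not test the pairing. Alternatives were other peak lists, windows, filters, a log2 scale, the replicate block and leaving out each library.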

Additional observations from a re-analysis of the deposited data

How the results depend on the processing

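No gene was called by either comparison on the linear scale, so an alternative that also calls 0 says nothing about stability. On a log2(percent + 1) scale, 4 genes were called by genotype and 2 by experiment, against 0 and 0 on the linear scale, and with experiment alone 192 were called. The median experiment difference over the members was -4.25 points with the deposited lists, -2.83 with peaks of -log10 q of at least 5 and -5.50 over gene ends only. The median coverage of the members was 25.3% with the deposited lists and 33.0% over gene ends. Regions shared by all 5 libraries numbered 31 where at least 50% of the region had to lie under peaks, against 61. With the replicate block, which pairs the libraries by experiment, 0 genes were called by genotype (smallest adjusted p 0.742 in limma) and the median over the members was 1.38 points.

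Leaving out 1 library at a time gave 0 to 0 genes called by genotype and 0 to 0 by experiment, medians over the members of -0.81 to 4.25 points by genotype and -8.25 to -3.84 by experiment, 33 to 34 members with a peak in every remaining library, a median coverage of 18.5% to 20.9% and 63 to 67 shared regions. Without either WT library, the experiment difference rests on SCAN1 libraries alone. Genotype differences that changed sign were HNRNPDL over gene ends (-0.97), TARDBP without SCAN1#1 replicate 2 (0.30) or SCAN1#2 replicate 2 (0.52; range -15.3 to 0.52), and EWSR1 over gene ends (5.52), without WT replicate 1 (5.79), without SCAN1#2 replicate 2 (2.18; range -10.7 to 5.79) and with the replicate block (0.62). The cause was not tested. The adjusted p of the 6 members followed through the alternatives was 0.751 to 1 throughout. The unknown depth, 5 libraries and a cut of each list at a different peak strength limit all comparisons.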

Other observations

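Median coverage of the other splicing genes was computed by class, without a test, and the class ranges overlapped. The 8 Sm protein genes, the core ring of the spliceosomal snRNPs, had a median coverage of 29.3% over the 5 libraries, the 14 genes of the exon junction complex and SR-related proteins 15.9%, the 19 genes of the U2 snRNP and 3′ splice site 13.7%, the 13 tri-snRNP genes 9.82%, the 32 other splicing regulators 8.40%, the 13 genes of the Prp19 complex and catalytic helicases 7.61%, the 8 U1 snRNP genes 6.97% and the 8 splicing kinase genes 2.32%. Coverage goes with length, and the median gene was 10.97 kb long in the Sm class and 34.0 kb in the kinase class. Single genes ran from PCBP1 (83.4%), an intronless gene for a poly(C) binder, SRRM2 (80.1%), a core protein of nuclear speckles, and PUF60 (72.9%), down to DYRK1A (0.156%), MBNL1 (0.118%) and U2AF1, which had no peak in any library. U2AF1 has a near-identical copy in this build, and the sources used here do not say how reads that fit both were placed.

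By genotype, SNRPD2 and SF3B5 had the largest positive differences among these genes and CIRBP and DDX39A the largest negative ones, none of them past the threshold. SNRPD2 was covered over 53.0% and 41.2% in WT, 74.2% and 91.3% in SCAN1#1 and 45.2% in SCAN1#2, a difference of 23.1 points (SE 15.3), with overlapping groups. SF3B5 stood at 0% in both WT libraries and SCAN1#1 replicate 1, 13.1% in SCAN1#1 replicate 2 and 28.2% in SCAN1#2. CIRBP, induced by mild cold, stood at 88.8% and 80.8% in WT, 58.8% and 53.6% in SCAN1#1 and 61.7% in SCAN1#2, with no overlap. Its difference was -26.8 points (SE 6.98, adjusted p = 1 in limma, 0.742 with the experiment as a block). DDX39A differed by -21.2 points (SE 13.2).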
